A study of Zea mays with 6 samples.

Results

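RNA-seq counts of maize (Zea mays) anthers at stages S3 to S5 held 120 nuclear genes whose transcripts were nearly lost in plants with the ZmRPN1 gene knocked out. A gene belonged to this set when its mean in wild-type (WT) libraries was at least 1 CPM, its mean in zmrpn1 libraries was at most 0.25 times the WT mean, and every zmrpn1 library lay below every WT library. CPM is the count of a gene per 1000000 counts of the same library, by the plain library total. It is not divided by gene length, so the levels of different genes are not set against each other. The 120 genes are out of 44146 nuclear genes with Zm00001d identifiers and 46430 rows of the count table. Identifiers from Zm00001d021621 to Zm00001d021845 and from Zm00001d035236 to Zm00001d035526 were left out of the choice. The set was chosen by the measured zmrpn1 and WT values, so the low zmrpn1 values of its genes are a description and carry no test.

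The zmrpn1 plants have the zmrpn1-1 allele, which the sample titles mark as Mutator and aa and the genotype labels give as a ZmRPN1 knockout. The comparison plants are labelled WT and AA. Both groups are anthers of one stage range, with 3 libraries each, and the labels give no inbred background, no plant age and no word on pooling. They also leave unsaid whether mutant and WT plants came from one segregating family, so an effect of ZmRPN1 and a difference in genetic background cannot be told apart. The libraries held 18724037 to 26000578 counts in zmrpn1 and 16203290 to 29515176 counts in WT. A single count was worth 0.0385 to 0.0534 CPM in the zmrpn1 libraries. In whole anthers, fewer cells of a type and less RNA per cell cannot be told apart.

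An anther is a wall of several cell layers around the cells that will enter meiosis and give rise to pollen. The innermost wall layer, the tapetum, feeds the meiocytes and later the young pollen, and many anther transcripts are made in only one of these cell types. Mutator is a family of maize transposable elements, and the insertion of such an element can disrupt a gene. In Arabidopsis, pollen number is known to depend on RDP1, a gene for a factor of ribosome assembly. The reference table used here paired 0 of the 120 identifiers with a name, so no gene of the set is given a name, a product or a role. For the same reason the marker genes of anthers, meiocytes, leaf and mature pollen, and ZmRPN1 itself, were not analysed here.

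As a group, the 120 genes kept 12.6% of their summed WT level in zmrpn1 anthers. Their CPM summed to 139.7, 138 and 143 in the zmrpn1 libraries, against 1160, 1096 and 1098 in the WT libraries. No single zmrpn1 library carried what was left. The 8 genes with the most counts in WT made up 47.1% of the summed WT level, and the other 112 genes kept 12.5% of theirs. All 120 genes passed the filter on low counts, which their WT libraries alone could satisfy, and all 120 were called lower by edgeR's quasi-likelihood test at an adjusted p under 0.05, where 5.82% of all tested genes were called lower. DESeq2 also called all 120 lower, beside 4.04% of all genes with an adjusted p. Since the same contrast chose the genes, nothing is read from these counts.

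**Figure D1:**
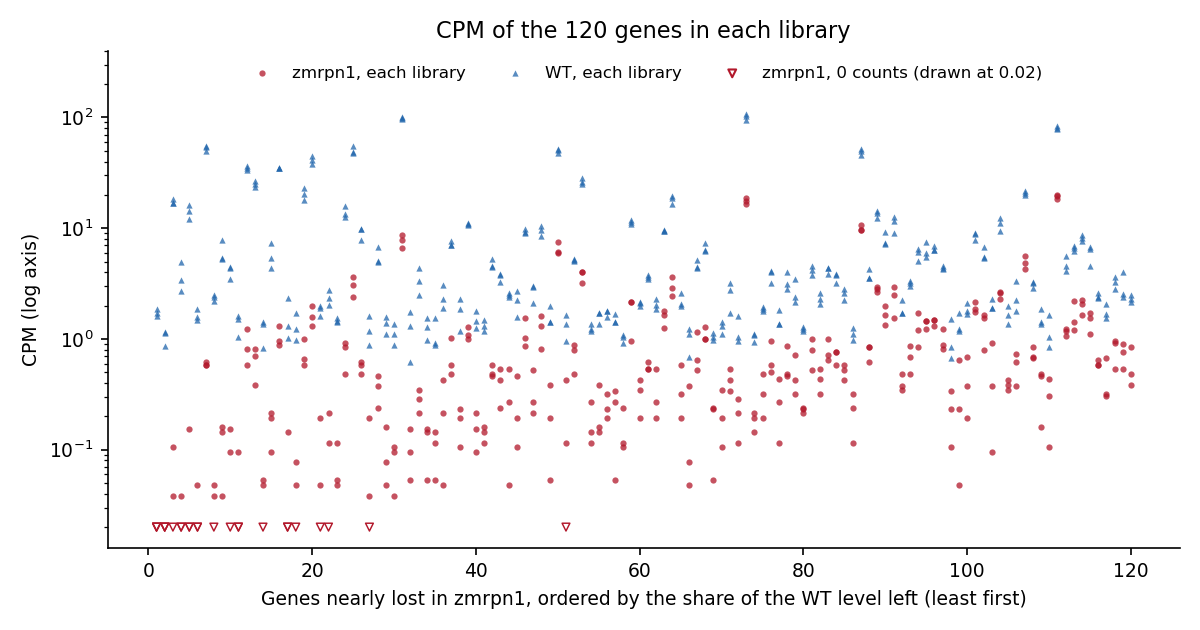
CPM on a log axis (vertical) of the 120 genes (horizontal, ordered by the share of the WT level left, least first), with red points for the 3 zmrpn1 libraries and blue triangles for the 3 WT libraries. Open red triangles at the bottom are zmrpn1 libraries with 0 counts, and the red points lie below the blue ones in each gene.

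The rule took 0.56% of the 21414 nuclear genes that had at least 1 CPM in WT and lay outside the left-out identifiers. Without the limit on size, 12.1% of those genes had every zmrpn1 library below every WT library. The rule with the groups exchanged, for genes nearly lost in WT, found 24 genes, or 0.112% of its own candidates. With the left-out identifiers kept, the rule found 124 genes and the exchanged rule 32, so leaving them out removed 4 genes on one side and 8 on the other. Of the 24 genes, 12 were found in every repeat without 1 library. Outside the left-out identifiers, large shortfalls in WT were also shallower. Of the nearly lost zmrpn1 genes, 23 kept at most 5% of the WT level and 38 kept at most 10%. Among the 24 genes of the exchanged rule, 0 had a WT level of at most 5% of the zmrpn1 level and 1 had at most 10%. Their zmrpn1 levels were 4.04 to 12.6 times the WT levels, with a median of 5.45. All 24 were called higher by edgeR, where 6.63% of tested genes were, and this too follows from how they were taken. The genes of the exchanged rule with the highest CPM in zmrpn1 were Zm00001d005892, at 9.77, 10.5 and 12.6 CPM in zmrpn1 against 2.84, 1.79 and 2.98 in WT, and Zm00001d009298, at 9.88, 8.45 and 9.58 CPM in zmrpn1 against 1.03, 1.79 and 0.813 in WT.

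**Figure D2:**
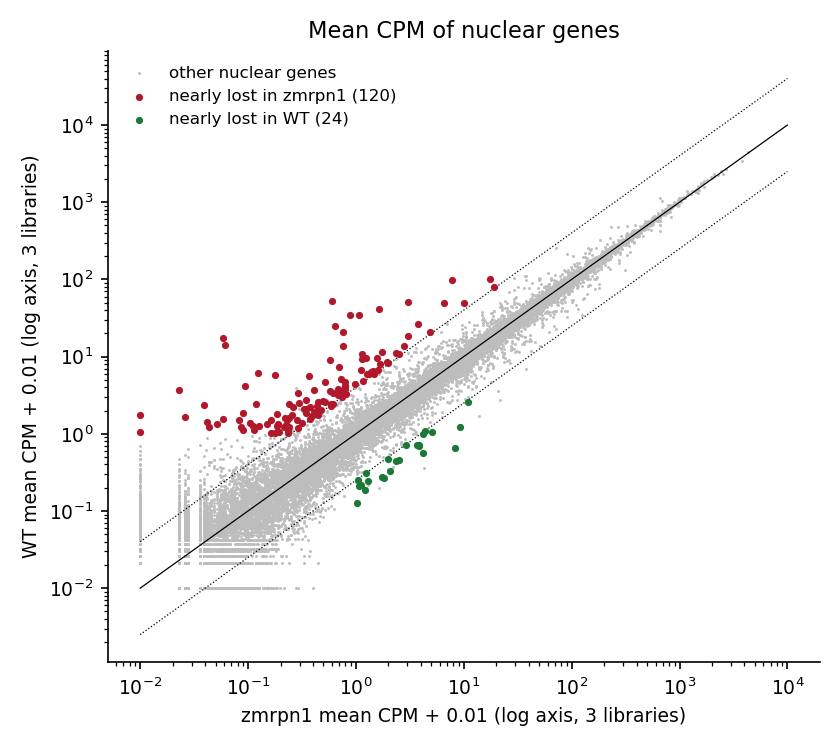
Mean CPM plus 0.01 in zmrpn1 (horizontal) and in WT (vertical), both on log axes, for nuclear genes with a count. The solid line marks equal means and the dotted lines a 4-fold difference, the 120 genes nearly lost in zmrpn1 are red and the 24 nearly lost in WT are green and lie closer to the dotted line.

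The limit of 25% of the WT level cut through a continuous run of genes. In steps of 5% of the WT level, starting from 0, the numbers of nuclear genes with at least 1 CPM in WT, outside the left-out identifiers and with overlapping libraries allowed, were 23, 16, 19, 28 and 35 up to the limit, and 29, 26, 31, 47 and 67 from there to 50%. The first step, from 0 to 5%, thus held more genes than either of the 2 steps after it. In the exchanged direction the same first 5 steps held 0, 1, 5, 10 and 8 genes. Nearest to it on the inner side lay Zm00001d045210, Zm00001d015139 and Zm00001d003689, which kept 24.9%, 24.8% and 24.8%. Just outside it lay Zm00001d031127, Zm00001d043988 and Zm00001d018431, which kept 25.02%, 25.1% and 25.1%. At the limit of 1 CPM, the lowest WT means inside were 1.00 CPM in Zm00001d017590 and 1.01 CPM in both Zm00001d029648 and Zm00001d028785. The highest outside, among genes that met the other conditions, were 0.993 CPM in Zm00001d006535, 0.945 CPM in Zm00001d007285 and 0.933 CPM in Zm00001d047705.

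**Figure D3:**
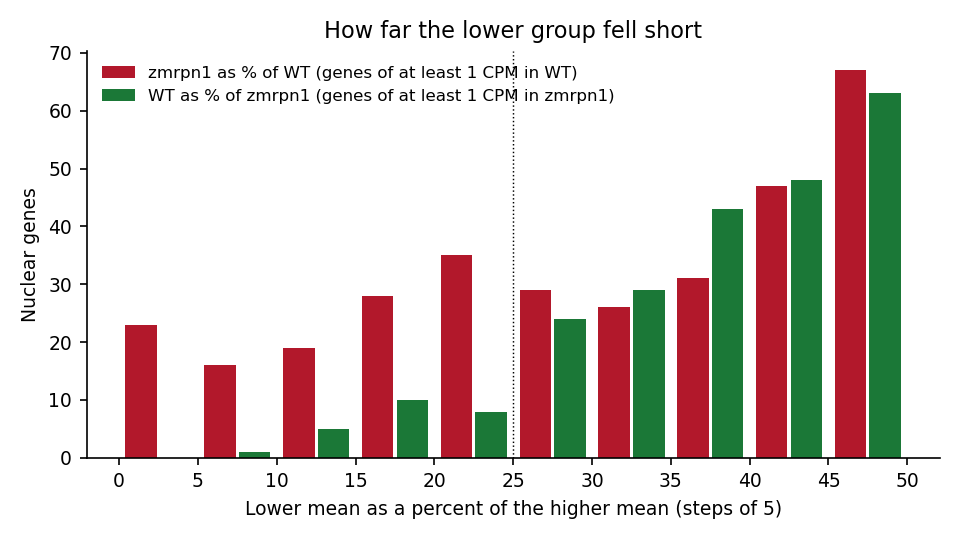
Numbers of nuclear genes outside the left-out identifiers (vertical) by the lower mean as a percent of the higher mean, in steps of 5 (horizontal), with zmrpn1 as a percent of WT in red and WT as a percent of zmrpn1 in green. The dotted line is the 25% limit, left of which the red bars hold 23, 16, 19, 28 and 35 genes and the green bars 0, 1, 5, 10 and 8.

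Most of the 120 genes had few counts in the WT libraries, which limits how finely their loss can be measured. The WT mean was from 1 to 2 CPM in 42 genes, from 2 to 5 CPM in 36, from 5 to 10 CPM in 19 and at least 10 CPM in 23. Of all nuclear genes with at least 1 CPM in WT, 7.91%, 12.2%, 12.05% and 67.9% lay in the same classes. The median was 3.05 CPM in the set and 20.7 CPM over all those genes, a difference in counts per library and, without gene lengths, not in transcript level. The median share left was 14.2%, 18.0%, 16.6% and 10.3% from the lowest to the highest class, and 15.5% over the whole set. Both limits of the rule bear on these medians, so no relation is read from them.

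The genes with the most counts in WT differed in the degree of loss. Their zmrpn1 counts, and so the precision of the share left, differed too. Zm00001d030915 had 16.5, 17.8 and 18.6 CPM in zmrpn1 against 104, 95.4 and 108 CPM in WT, so 17.2% was left. For Zm00001d045361 the values were 8.65, 7.88 and 6.65 CPM in zmrpn1 and 100.3, 97.1 and 97.9 CPM in WT, and 7.85% was left. Zm00001d021901 kept 23.8%, near the limit, at 18.2, 19.5 and 19.96 CPM in zmrpn1 against 84.1, 78.3 and 79.6 CPM in WT. In each of these genes the zmrpn1 libraries lay close together and far below the WT libraries.

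Among the same well counted genes, Zm00001d051938 was the most reduced. It had 0.587, 0.576 and 0.615 CPM in zmrpn1 against 53.6, 55.5 and 49.5 CPM in WT. Its 39 counts over the zmrpn1 libraries stood against 3458 over the WT libraries, which leaves 1.14% with a 95% exact interval of 0.808% to 1.56%. Intervals of this kind cover counting error only and pool the libraries of a group. Zm00001d010588 kept 3.90%, at 1.98, 1.297 and 1.58 CPM in zmrpn1 and 45.3, 40.9 and 38.2 CPM in WT. Zm00001d028651 kept 5.98%, at 3.10, 2.40 and 3.62 CPM in zmrpn1 and 55.6, 48.8 and 48.0 CPM in WT. The remaining 2 of the 8 genes with the most WT counts lost less, as Zm00001d012221 kept 13.1% and Zm00001d013945 kept 20.3%. Zm00001d012221 averaged 6.55 ± 0.889 CPM in zmrpn1 and 50.02 ± 1.88 CPM in WT (SD, n = 3 each).

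At the far end were genes of which zmrpn1 anthers held a few counts at most. Zm00001d022084 had 2, 0 and 1 counts in the zmrpn1 libraries against 375, 275 and 501 in the WT libraries, so 0.263% was left, with an exact interval of 0.0542% to 0.771%. Zm00001d006538 had 0, 0 and 1 counts in zmrpn1 against 102, 55 and 80 in WT, which gives 0.426% with an interval of 0.0107% to 2.40%. Zm00001d037656 had all of its 4 zmrpn1 counts in replicate 3, against 333, 233 and 359 counts in WT. With so few zmrpn1 counts the intervals of these genes overlap, and their order is not settled at this depth.

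The next genes by measured share were counted among those with a WT mean of at least 2 CPM. Where zmrpn1 counts are few, their order is not settled either. Zm00001d022437 had 0, 1 and 1 counts in zmrpn1 against 51, 39 and 65 in WT. Zm00001d032947 had 3, 3 and 1 against 161, 88 and 156, and Zm00001d025081 had 0, 2 and 4 against 90, 73 and 103. In each of these genes single libraries of zmrpn1 held at most 4 counts. Zm00001d007765 is better counted, with 23, 12 and 21 counts in zmrpn1 against 714, 545 and 1077 in WT, and kept 2.49%.

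Only Zm00001d024208 and Zm00001d053554 had 0 counts in every zmrpn1 library. Zm00001d024208 averaged 1.73 ± 0.126 CPM over the WT libraries (SD, n = 3). With zmrpn1 set to a floor of 3 counts over the group, it was 38.0-fold lower, without allowance for error in the WT counts. The exact interval, which also covers the WT counts, allows up to 3.29% of the WT level. Zm00001d053554 averaged 1.047 ± 0.159 CPM in WT and was 23.4-fold lower by the same floor, with up to 5.38% allowed by the exact interval. At the other extreme of depth, 104 of the 120 genes had a count in every zmrpn1 library, so for most of the set some reads were still counted. Whether such reads came from similar genes was not analysed here. In 26 genes the zmrpn1 libraries held at most 10 counts in all.

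The 3 zmrpn1 libraries kept similar shares over the set. The median share of the WT mean was 14.1%, 12.4% and 14.9% in replicates 1, 2 and 3. Among the 118 genes with a zmrpn1 count, replicate 1 was the highest zmrpn1 library in 41, replicate 2 in 36 and replicate 3 in 41. In the 38 genes with at least 50 zmrpn1 counts, the median chi-square per degree of freedom was 1.36 among the zmrpn1 libraries and 1.21 among the WT libraries, where counting error alone gives a median of 0.693. The libraries of both groups thus varied more than counting error at the median.

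A few genes were uneven. Among the 73 genes with at least 20 zmrpn1 counts, the fullest library held a median of 42.6% of them, and replicate 3 held 39.7% of all zmrpn1 counts. Zm00001d032458 had 7, 2 and 24 counts in zmrpn1 against 39, 31 and 68 in WT, so 72.7% of its zmrpn1 counts lay in replicate 3. Zm00001d049028 had 5, 1 and 14 counts in zmrpn1 against 53, 39 and 73 in WT. Replicate 3 was also the fullest library for Zm00001d025287, with 18 of 29 zmrpn1 counts, and for Zm00001d038075, with 30 of 53. As the rule requires, the highest zmrpn1 value of these genes is below the lowest WT value.

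The gap between the groups was wide in nearly all of the set, which the rule's limits on share and overlap largely require. In 117 of the 120 genes the lowest WT value was more than 2 times the highest zmrpn1 value, and the narrowest gap was 1.83 times. The spread among WT libraries was a coefficient of variation of 11.6% at the median. That exceeds the 6.08% of all nuclear genes with at least 1 CPM in WT, which have more counts. At like WT levels the medians were 17.0% in the set and 19.2% over all genes from 1 to 2 CPM, 11.3% and 13.1% from 2 to 5 CPM, 10.7% and 8.99% from 5 to 10 CPM, and 5.94% and 4.805% from 10 CPM up.

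Apart from the left-out ranges of identifiers, the rule did not use the position of the genes in the table. Groups inside those ranges are not counted here. Rows of the table ran in genome order as far as named rows can show, since all 142 neighbouring pairs of microRNA precursors on one chromosome stood as they do in a later assembly, Zm-B73-REFERENCE-NAM-5.0. Of the 120 genes, 100 stood alone, with no other gene of the set within 5 rows. The other 20 formed 8 groups, 4 of 3 genes and 4 of 2 genes. How many of all genes have a gene of the set within 5 rows was not counted, so these numbers are a description. Among the groups of 2, Zm00001d044906, Zm00001d044908 and Zm00001d048949 were not found in every repeat that left out a single library. The grouped genes kept a median of 6.29% of the WT level and the lone genes 16.2%, a difference that was not tested. Whether neighbouring rows are copies of one gene, overlap on opposite strands or belong to one transcript was not analysed here, and the sources used here do not say how reads that match several genes were counted.

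The group Zm00001d045390, Zm00001d045391 and Zm00001d045392 had the most counts. Zm00001d045390 had 0.481, 0.912 and 0.846 CPM in zmrpn1 against 15.7, 13.3 and 12.5 CPM in WT. Zm00001d045391 had 0.694, 0.816 and 0.385 CPM in zmrpn1 against 26.5, 23.4 and 25.004 CPM in WT. Zm00001d045392 had 0.961, 1.297 and 0.885 CPM in zmrpn1 against 35.0, 34.6 and 34.7 CPM in WT. The 3 genes kept 5.39%, 2.53% and 3.01%, and they lie in consecutive rows. The tested genes directly before and after them were not called: Zm00001d045389 had 124 CPM in zmrpn1 and 121 in WT (log2 change 0.02, SE 0.05, edgeR adjusted p = 0.901), and Zm00001d045393 had 4.64 CPM in zmrpn1 and 4.39 in WT (log2 change 0.09, SE 0.17, edgeR adjusted p = 0.832).

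Tested genes at the edges of the other groups of 3 also lay near the WT level. Zm00001d024208, Zm00001d024210 and Zm00001d024211 had 0, 3 and 11 counts over the zmrpn1 libraries against 115, 95 and 368 over the WT libraries. Their tested neighbours Zm00001d024205 and Zm00001d024212 stood at 99.9% and 98.0% of the WT level. Zm00001d028814, Zm00001d028815 and Zm00001d028816 kept 16.3%, 18.0% and 2.29%, so a group could hold genes of very different loss. Zm00001d028816 had 0, 2 and 0 counts in zmrpn1 against 31, 17 and 48 in WT, while Zm00001d028814 had 31, 26 and 46 against 199, 154 and 278. The neighbours Zm00001d028813 and Zm00001d028818 stood at 111% and 99.6% of the WT level. Zm00001d024960, Zm00001d024961 and Zm00001d024962 kept 9.52%, 21.0% and 18.5%, between neighbours at 107% and 107%.

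In 3 of the groups of 2, genes at 86.0% to 132% of the WT level stood between the nearly lost ones. Zm00001d022081 had 4, 0 and 3 counts in zmrpn1 against 48, 33 and 82 in WT, and it was parted from Zm00001d022084 by Zm00001d022082 and Zm00001d022083, at 125.1% and 94.6% of the WT level. Zm00001d044906 and Zm00001d044908 kept 22.3% and 7.19%, around Zm00001d044907 at 86.0%. Zm00001d040649 and Zm00001d040651 kept 4.39% and 22.5%, and Zm00001d040650 between them was higher in zmrpn1, at 16.8 CPM against 12.7 CPM in WT (log2 change 0.40, SE 0.10, edgeR adjusted p = 0.00253). The last pair, Zm00001d048949 and Zm00001d048950, kept 23.5% and 21.0%. The tested gene before this pair, Zm00001d048947, was lower as well, at 3.67 CPM in zmrpn1 and 7.67 CPM in WT (log2 change -1.07, SE 0.15, edgeR adjusted p = 8.6e-07).

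Over all 8 groups, 1 of the 16 tested genes at their edges was called lower and 0 were called higher, with a median level of 101% of WT. Of the 4 tested genes between their members 0 were called lower and 1 was called higher. Genes at the edges and in between are outside the set by definition, and a group ends where the rule is no longer met. Their levels are thus partly fixed by how the set was chosen and carry no test of where a loss ends.

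**Figure D4:**
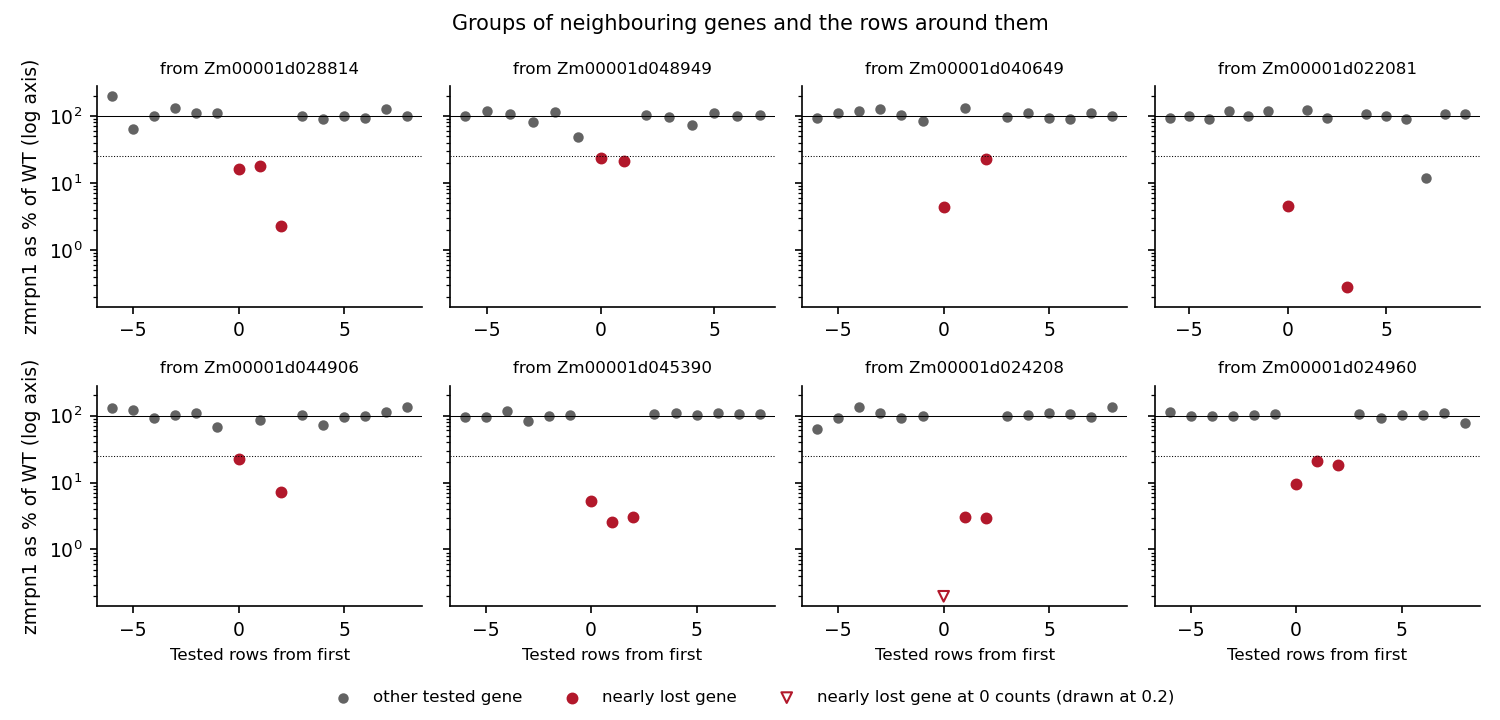
zmrpn1 mean as a percent of the WT mean on a log axis (vertical) against position in tested rows from the first gene of the group (horizontal), with 1 panel for each of the 8 groups of neighbouring genes. Red points are nearly lost genes, the open triangle is a gene at 0 counts and grey points are other tested genes. The solid line is 100% and the dotted line 25%. Most grey points lie near 100%, and as genes outside the set none could meet its rule.

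The genes around the whole set were mostly not called in either direction. Within 5 tested rows of a gene of the set lay 1055 other tested nuclear genes, of which 69 were called lower by edgeR, or 6.54%, and 56, or 5.31%, were called higher. Over all 23247 tested nuclear genes outside the set the shares were 5.35% lower and 6.68% higher. The median log2 change of the neighbours was -0.0032, against 0.0024 over all tested nuclear genes outside the set. In the very next tested row 18 of 219 genes were called lower, or 8.22%, and 13 were called higher, or 5.94%. Whether these shares differ from those of other genes was not tested.

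Some close neighbours met the limit on share but had too few counts for the set. These genes were picked out once their values were known. Zm00001d027948 and Zm00001d027949 follow directly on Zm00001d027947, which kept 4.88% of its WT level. Zm00001d027948 had 0.0320 CPM in zmrpn1 and 0.874 CPM in WT (log2 change -4.65, SE 0.69, edgeR adjusted p = 2.64e-06). Zm00001d027949 had 0.0178 CPM in zmrpn1 and 0.631 CPM in WT (log2 change -4.94, SE 0.82, edgeR adjusted p = 2.16e-05). With them this run would hold 3 consecutive rows. Zm00001d006535, 3 rows from Zm00001d006538, missed the set by its WT mean of 0.993 CPM and kept 16.4%. Zm00001d022092, 8 rows from Zm00001d022084, kept 11.8% at a WT mean of 0.664 CPM. Zm00001d045833, 8 rows from Zm00001d045843, kept 14.8% at a WT mean of 0.781 CPM.

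The opposite pattern, a nearly lost gene beside a raised one, was also found, and its genes were picked out in the same way. Zm00001d052744 had 1, 2 and 4 counts in zmrpn1 against 36, 10 and 39 in WT. The rule did not find it in every repeat that left out a single library. In the next row Zm00001d052745 had 23, 28 and 28 counts in zmrpn1 against 5, 2 and 5 in WT (log2 change 2.69, SE 0.43, edgeR adjusted p = 9.96e-06). It was the one gene of the exchanged rule within 5 rows of the set. Zm00001d013945 had 9.72, 10.6 and 9.65 CPM in zmrpn1 against 51.9, 49.9 and 46.1 CPM in WT, and in the next row Zm00001d013947 had 3.20, 3.89 and 3.77 CPM in zmrpn1 against 0.929, 1.05 and 0.949 CPM in WT (log2 change 1.89, SE 0.23, edgeR adjusted p = 5.54e-08). One more such pair missed the set by its level, with Zm00001d007285 at 2, 1 and 9 counts in zmrpn1 against 20, 12 and 33 in WT, next to Zm00001d007286 at 151, 173 and 215 counts in zmrpn1 against 12, 9 and 24 in WT.

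**Figure D5:**
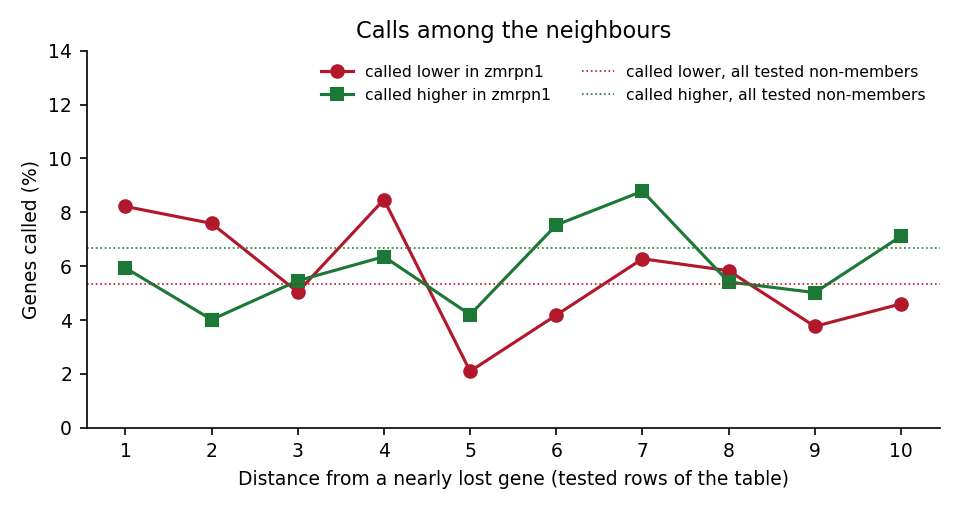
Percent of genes called by edgeR (vertical) at each distance, in tested rows, from a nearly lost gene (horizontal), in red for genes called lower and green for genes called higher in zmrpn1. Dotted lines give the same over all tested nuclear genes outside the set, 5.35% lower and 6.68% higher; in the next row 8.22% were called lower, and at 5 rows 2.10%.

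The size of the set depended little on any single library. Which genes it held depended more on them, as leaving out 1 library lost 3 to 11 of the 120. Without 1 library, the rule found 114 to 126 genes, and 93 of the 120 were found in all 6 such repeats. Of the 27 that were not, 25 kept more than 20% of the WT level or had a WT mean under 1.2 CPM. Zm00001d053554, at 0 counts in zmrpn1, was among the 27, since its WT mean of 1.047 CPM was close to the limit. With CPM from TMM-scaled library sizes the rule kept all 120 and added 4.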

How the data were processed

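Total RNA of anthers from 3 zmrpn1 and 3 WT samples was freed of DNA by DNase I, and NEBNext Ultra II reagents were used for the libraries, per the labels' protocols. The authors deposited whole-number counts per gene, 1 column per library, with no normalization. The build B73 RefGen_v4 and the tools featureCounts 1.6.4, HISAT2 2.2.1, Trimmomatic 0.39, DESeq2 and StringTie 1.3.6 are named without settings, per the submitters' processing notes. Strand-aware counting and the handling of multiply mapped reads are not given in the sources used here. Columns were matched to samples by genotype code and replicate number.

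The set, the lists and the tests were chosen with earlier results of these data known. Counts were fitted across all genes with edgeR 4.0.16 in R 4.3.3: filterByExpr (minimum count 10) left 23477 genes, libraries were scaled by TMM, and a robust quasi-likelihood F test compared zmrpn1 with WT, with Benjamini-Hochberg adjusted p under 0.05 as a call. The standard error of a log2 change was taken as its size over the root of F. Values in CPM use plain library totals. Intervals are exact binomial 95% intervals on counts pooled by group, and a count of 0 was set to a floor of 3 counts over the group; both cover counting error only. Only the edgeR fit was tested on simulated counts, and the rule, the intervals, the floor and the neighbour counts were not. Neighbours were counted along the rows of the table, and no coordinates of the reference assembly are given. Libraries of a group gave chi-square values of 1.97 to 4.88 per degree of freedom, so each counts as 1 replicate, and since the labels do not say that they came from separate plants, the spread behind the p-values may be technical.

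Named genes were the 8 with the highest WT mean, the 8 with the lowest share left at a WT mean of at least 2 CPM, those at 0 counts throughout zmrpn1 and at 10 or more in every library of WT, the 3 on either side of the 25% limit, all with another gene of the set within 5 rows, the 4 whose zmrpn1 counts (at least 20) lay most in 1 library, and 2 of the exchanged rule. Genes beside the groups, at the 1 CPM limit and among those the rule left out were added after their values were seen. Alternatives were other scalings, no filter on low counts, DESeq2 1.42.0, a replicate block, fits without 1 library, other limits of the rule and other windows.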

Additional observations from a re-analysis of the deposited data

How the results depend on the processing

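All 120 genes were called lower in each of the 11 alternative fits, which follows from their choice. The set itself depends on its limits: it held 78 genes at a WT mean of at least 2 CPM, 316 at a share left of at most 50% and 46 at 12.5%. The exchanged rule gave 14, 226 and 2 genes under the same limits. These moves follow from the limits. Without 1 library the set held 114 to 126 genes, the exchanged rule 19 to 29, genes called lower numbered 1033 to 1339 and higher 1184 to 1421, and neighbours called lower 5.31% to 6.45%, where the same fits called 3.85% to 5.17% of all nuclear genes outside the set lower. With all libraries, 8.22% of the genes in the next tested row were called lower. DESeq2 called 5.38% of neighbours lower, against 3.64% of all nuclear genes outside the set. A replicate block gave 1386 genes lower and 1619 higher and 6.45% of neighbours lower, against 5.43% of those genes. Sharing a replicate number was not taken as pairing, because the numbers are not said to mark a shared plant, batch or day. The correlations of deviations from the group means were -0.0839, 0.0534 and 0.0182 for numbers 1, 2 and 3. Genes with few zmrpn1 counts cannot be ordered by the share left at this depth.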

Other observations

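One gene met the limits on level and share but not the one on overlap. Zm00001d007010 had 0.320, 0.0960 and 0.385 CPM in zmrpn1 against 0.391, 0.370 and 11.05 CPM in WT, so its WT mean of 3.94 CPM rested on replicate 3. Another 4 genes met the rule but lay among the left-out identifiers. Of these Zm00001d021772 had the highest WT level, at 1.495, 1.01 and 2.38 CPM in zmrpn1 against 9.92, 8.83 and 9.96 CPM in WT. Zm00001d021699, Zm00001d021726 and Zm00001d035381 kept 13.8%, 22.6% and 23.8% of the WT level.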
